A study of Arabidopsis thaliana with 8 samples.

Results

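Cytochrome P450 genes of Arabidopsis thaliana were examined in RNA from roots of the wild type Col-0 and of the mutant per1. Genes were members if an array probeset had a single gene in the platform annotation and that gene's current symbol followed the P450 naming pattern, CYP with a family number, a subfamily letter and a member number. This gave 23 of 13286 loci with a named probeset, each with 1 probeset. The gene table holds 236 loci with such a symbol. The other 213 were not analysed here because no probeset carried their name alone in that annotation. It left 8730 probesets without a gene, so this does not show that the array lacks probesets for them. Of the 23 members, 19 belong to subfamily CYP71B, which has 36 loci in the gene table. Single members represent CYP51G, CYP78A, CYP79A and CYP84A. The set is therefore largely a view of CYP71B and not of the whole P450 superfamily.

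Plants grew for 10 days on agar with control medium and were then moved for 10 h to fresh control medium or to medium lacking phosphate (Pi). With both genotypes this gave 4 groups of 2 arrays: Col-0 control, Col-0 Pi-free, per1 control and per1 Pi-free, all in the Col-0 ecotype. The mutant per1 is known for root hairs that do not lengthen under Pi deficiency. The labels call the 2 arrays of a group biological replicates, and say neither how many plants were pooled nor which allele per1 carries. Their free-text description speaks of iron media, so the groups follow the titles and source names, which speak of Pi. With 2 arrays in each group, an exact two-sided permutation test of a single gene cannot give a p below 0.33, and the p-values below come from a model over all probesets.

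Cytochrome P450s are heme enzymes that usually insert an oxygen atom into small molecules, with electrons passed on by a reductase in the endoplasmic reticulum membrane. Plants use them to make lignin, sterols, hormones and defence compounds. In Arabidopsis the CYP71 clan has expanded by tandem duplication, so that close relatives lie side by side, and most CYP71B enzymes have no assigned substrate. CYP71B15, also called PAD3, belongs to this subfamily and completes the defence compound camalexin; it had no named probeset and was not analysed here.

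The deposited values are linear probeset signals, and a probeset's signal cannot be set against that of another probeset. A signal was taken as above background where it exceeded every unspiked bacterial control probeset of the same array, a limit of 26.1 to 43.4 depending on the array. By this limit 10 of 23 members were above background on all 8 arrays, 5 on some arrays and 8 on no array. The 10 are called measured members below. They were 43.5% of the members, while 68.2% of all probesets were above the limit on every array.

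**Figure D1:**
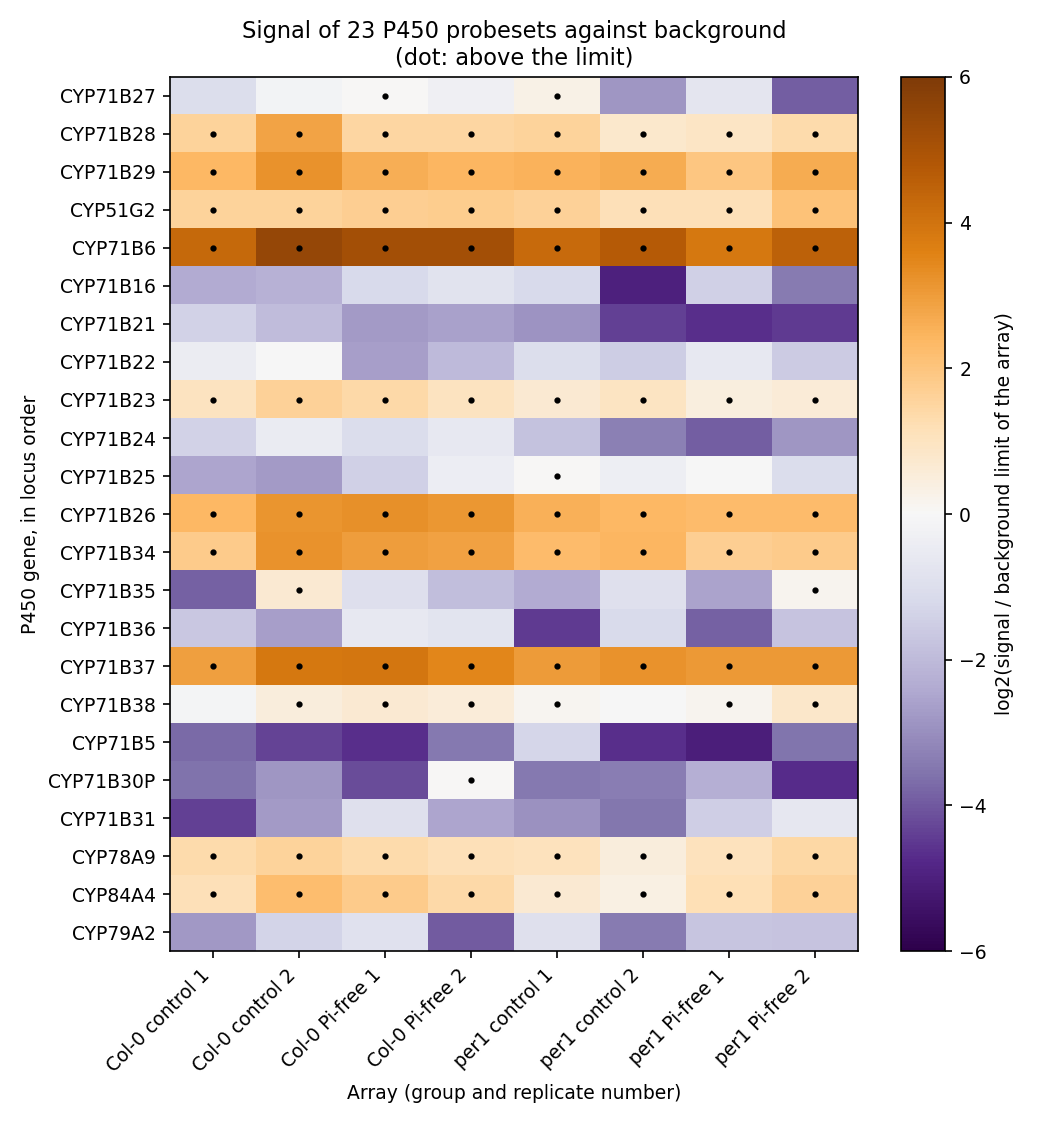
Signal of each of the 23 P450 probesets (rows, in locus order) on each of the 8 arrays (columns), as log2 of the signal over that array's background limit. A dot marks a signal above the limit: 10 members have a dot on all 8 arrays, and 8 members have none. Colours are to be read against the limit, not between genes.

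Of the 23 loci 16 lie on chromosome 3, and 11 of them sit in 1 run of 24 loci from CYP71B16 (AT3G26150) to CYP71B37 (AT3G26330), in which 18 loci are CYP71B genes. Measured and unmeasured genes are interspersed within this run. CYP71B23 (AT3G26210), CYP71B26 (AT3G26290), CYP71B34 (AT3G26300) and CYP71B37 were above background on all arrays. CYP71B16, CYP71B21, CYP71B22, CYP71B24 and CYP71B36 were above it on none, and CYP71B25 and CYP71B35 on 1 and 2 arrays. Neighbours in the run thus differed in whether a root signal was detectable at all, and whether probesets of such close relatives also bind each other's transcripts was not tested.

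No P450 member passed the test in any of 7 comparisons. Each comparison was tested with limma over all 22746 probesets and called at a Benjamini-Hochberg adjusted p under 0.05, and the lowest adjusted p of any member was 0.15. The number of members at an unadjusted p under 0.05 was 2 of 23 (8.7%) for the Pi response in Col-0, 2 (8.7%) in per1, 3 (13%) for the genotype difference with Pi and 4 (17.4%) without Pi. The matching shares of all probesets were 7.68%, 4.47%, 10.3% and 10.7%. For the effects averaged over the other factor these counts were 1 (4.35%, against 6.3% of all probesets) for Pi and 6 (26.1%, against 14.1%) for genotype. For the interaction the count was 2 (8.7%, against 5.3%). Some of the counted members were at or near background. These were CYP71B22 for the Pi response in Col-0 and the interaction, and CYP71B31 for the Pi response in per1 and averaged. For the genotype difference they were CYP71B25 with Pi, CYP71B24 without Pi, and CYP71B24 and CYP71B25 averaged. The shares called at the adjusted threshold among all probesets were 0.0615% for the Pi response in Col-0, 0.0044% in per1, 0.0572% and 0.0308% for genotype in control and Pi-free medium, 0.00879% for the interaction, and 0.127% and 0.818% for the averaged Pi and genotype effects. A count of 0 among 23 members is near what those shares give. In bulk roots, fewer cells of a type and less RNA per cell cannot be told apart in any of these values.

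The measured members had their highest group mean in Col-0 for 9 of 10 genes and their lowest in per1 for 9 of 10. Of the 9, 5 were highest in Col-0 control and 4 in Col-0 Pi-free. The exception on the high side was CYP51G2 and on the low side CYP71B29. This order of means was not tested, and the share of all probesets with such an order was not counted. The plot of signals by array shows that the arrays of a group often lie as far apart as the groups.

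**Figure D2:**
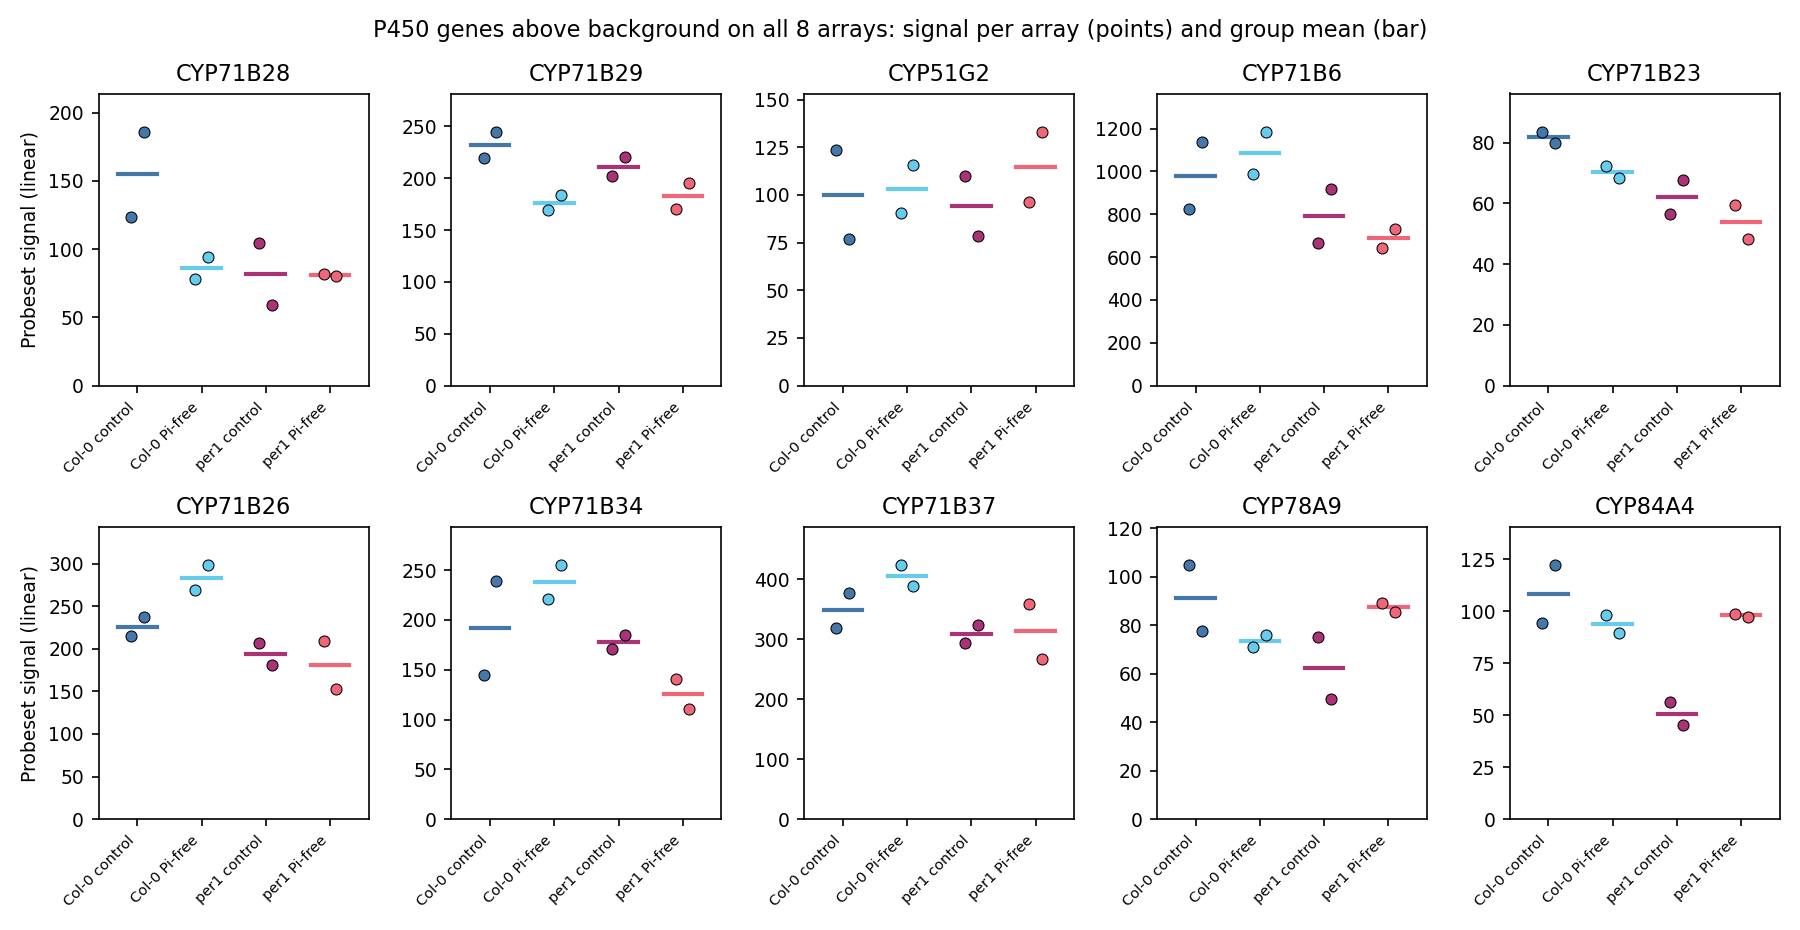
Linear probeset signal (y axis, each gene on its own scale from 0) of the 10 P450 genes above background on all 8 arrays, by group (x axis). Points are the 2 arrays of a group and bars are group means. CYP84A4 is lowest on both per1 control arrays, 56.3 and 45.2, and CYP71B26 is highest on both Col-0 Pi-free arrays, 269 and 298.4.

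Among members with a known role in indolic and glucosinolate metabolism, CYP71B6 (AT2G24180, chromosome 2) was measured. It acts on indole-3-acetonitrile, a product of the indole glucosinolate and camalexin routes. Its signal was 822.9 and 1137.6 on the Col-0 control arrays of replicates 1 and 2, 989 and 1185.9 in Col-0 Pi-free, 666.8 and 917.9 in per1 control, and 640.8 and 733.1 in per1 Pi-free. Without Pi both per1 arrays were below both Col-0 arrays, whereas with Pi the genotypes overlapped, although the difference within replicate numbers 1 and 2 was -0.30 in each on the log2(signal + 16) scale. The Pi-free means were 687 ± 65.3 in per1 and 1088 ± 139 in Col-0 (SD, n = 2). The difference was -0.65 ± 0.19 on the log2(signal + 16) scale (SE), with a 95% interval of -1.08 to -0.22. It was -0.61 and -0.68 within replicate numbers 1 and 2, and did not pass, with a limma adjusted p of 0.28. Here and below, same-numbered arrays share only a number in the labels. The fit did not pair them, and values within numbers are given as description. Averaged over media the difference was -0.47 ± 0.14, with an interval of -0.78 to -0.17 and an adjusted p of 0.15, the lowest of any member in any comparison. With the replicate number as a block, a pairing that the labels do not establish, it passed at a limma adjusted p of 0.023. All intervals here are from limma's moderated variances and are not adjusted for the number of probesets.

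CYP79A2 (AT5G05260, chromosome 5), which turns phenylalanine into the oxime precursor of benzylglucosinolate, was above background on no array, with signals from 2.2 to 18.7. Of 28 other genes of the glucosinolate pathway 3 had a named probeset and 0 were called in any comparison. They were BCAT4, an aminotransferase of methionine chain elongation, UGT74B1, a glucosyltransferase of the core pathway, and GSTU20, a glutathione transferase. Averaged over media, per1 differed from Col-0 by 0.45 ± 0.11 for BCAT4, 0.00 ± 0.11 for UGT74B1 and -0.27 ± 0.21 for GSTU20, with limma adjusted p of 0.11, 1.0 and 0.62. The direction of the CYP71B6 estimate was thus not shared by all 3.

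CYP84A4 (AT5G04330, chromosome 5) is a close relative of the lignin enzyme ferulate 5-hydroxylase and takes part in making the pyrone compounds called arabidopyrones. Its signal was 94.5 and 122.2 in Col-0 control, 98.2 and 89.3 in Col-0 Pi-free, 56.3 and 45.2 in per1 control, and 98.6 and 97.4 in per1 Pi-free. The low value of per1 in control medium stood apart from the other 3 groups, which overlapped with each other. The per1 control mean was 50.8 ± 7.85 against 108 ± 19.6 in Col-0 control and 98 ± 0.849 in per1 Pi-free (SD, n = 2). On the log2 scale the genotype difference in control medium was -0.89 ± 0.25, with an interval of -1.46 to -0.32 and a limma adjusted p of 0.29.

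The Pi response of CYP84A4 in per1 was 0.78 ± 0.25, with an interval of 0.21 to 1.35 and an adjusted p of 1.0. In Col-0 the corresponding groups overlapped. The interaction, the per1 Pi response minus that of Col-0, was 0.95 ± 0.36 (interval 0.14 to 1.75) and 0.62 and 1.28 within replicate numbers 1 and 2. Its limma adjusted p was 0.92, so the difference between genotypes in the Pi response did not pass. The background limits of the per1 control arrays were 35.7 and 35.2, not far below the signals of 56.3 and 45.2 there.

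Of 20 other genes of phenylpropanoid and coumarin synthesis 5 had a named probeset, and 0 were called in any comparison. HCT, the hydroxycinnamoyl transferase of lignin synthesis, differed by 0.01 ± 0.08 between per1 and Col-0 averaged over media, and the reductase gene CCR2 by -0.07 ± 0.16. F6'H1 (AT3G13610), the hydroxylase that opens the coumarin branch, stood at -0.59 ± 0.14 with a limma adjusted p of 0.098. AT1G28680 and AT3G12900 stood at -0.16 ± 0.10 and 0.21 ± 0.22. The 5 genes had no common direction. Of 14 triterpene and sterol genes other than P450s 2 had a named probeset, AT5G47980 and AT5G47950, and 0 were called. The lists of P450 electron donors (9 loci), suberin and cutin genes (14), hormone pathway genes (33) and jasmonate genes (11) had no named probeset and were not analysed here.

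CYP78A9 (AT3G61880, chromosome 3) belongs to a subfamily that promotes organ growth and is known for its effect on fruit and seed size. Its signal was 104.8 and 77.6 in Col-0 control, 71 and 75.9 in Col-0 Pi-free, 75.3 and 49.5 in per1 control, and 89.3 and 85.5 in per1 Pi-free. With Pi supplied both per1 arrays lay below both Col-0 arrays, and without Pi both lay above. The genotype difference was -0.46 ± 0.28 with Pi and 0.21 ± 0.28 without it, with limma adjusted p of 0.63 and 0.84. The Pi response was -0.25 ± 0.28 in Col-0 and 0.42 ± 0.28 in per1, both with intervals that include 0. These sizes rest on single control arrays. Without the per1 control array of replicate 2 the genotype difference with Pi was -0.22 and the Pi response in per1 was 0.18. Without the per1 control array of replicate 1 they were -0.70 and 0.66. The Pi response in Col-0 was -0.07 without the Col-0 control array of replicate 1 and -0.43 without that of replicate 2. The genotype difference with Pi was -0.28 without that Col-0 array of replicate 1.

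CYP51G2 (AT2G17330, chromosome 2) is listed as a transcribed pseudogene and is related to the sterol 14-demethylase that plants need for membrane sterols. Its signal was 123.3 and 76.8 in Col-0 control, 90.6 and 115.9 in Col-0 Pi-free, 110 and 78.7 in per1 control, and 96.3 and 133.2 in per1 Pi-free. The 4 groups overlapped in every comparison, and its adjusted p over the 4 groups from limma's moderated F test was 0.96.

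Within the chromosome 3 run, CYP71B26, CYP71B34 and CYP71B37 had their highest mean in Col-0 Pi-free. CYP71B26 read 214.6 and 237.5 in Col-0 control, 269 and 298.4 in Col-0 Pi-free, 206.9 and 180.5 in per1 control, and 209.7 and 152.7 in per1 Pi-free. Its Col-0 Pi-free arrays were above all 6 others. The Pi response in Col-0 was 0.31 ± 0.20, and 0.31 within both replicate numbers, with an interval of -0.13 to 0.75 and a limma adjusted p of 0.77. In Pi-free medium per1 differed from Col-0 by -0.62 ± 0.20, with an interval of -1.06 to -0.18 and an adjusted p of 0.31. Without the per1 Pi-free array of replicate 2 it was -0.41, and without that of replicate 1 it was -0.83. In control medium the groups did not overlap either, at -0.21 ± 0.20. This was -0.12 without the per1 control array of replicate 2 and -0.30 without that of replicate 1. Averaged over media the difference was -0.41 ± 0.14 with a limma adjusted p of 0.22.

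CYP71B34, which lies between CYP71B33 and CYP71B35 in locus order, read 144.8 and 239.6 in Col-0 control, 220.8 and 255.1 in Col-0 Pi-free, 171.3 and 184.8 in per1 control, and 140.3 and 110.9 in per1 Pi-free. The Col-0 control arrays were so far apart that they spanned both per1 control arrays. Its genotype difference in Pi-free medium, -0.85 ± 0.25, had an interval of -1.40 to -0.29, with a mean of 126 ± 20.8 in per1 and 238 ± 24.3 in Col-0 (SD, n = 2). Its adjusted p was 0.28, the lowest of the members in that comparison. The Pi response in per1 was -0.46 ± 0.25 with no overlap of the groups, and an interval of -1.02 to 0.09.

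CYP71B37 read 318.6 and 377 in Col-0 control, 423.2 and 388 in Col-0 Pi-free, 293.5 and 322.6 in per1 control, and 358.9 and 266.7 in per1 Pi-free. Its difference of per1 from Col-0 in Pi-free medium was -0.37 ± 0.17, with an interval of -0.76 to 0.02. It was -0.58 without the per1 Pi-free array of replicate 1 and -0.17 without that of replicate 2. CYP71B23 read 83.6 and 79.9 in Col-0 control, 72.3 and 68.3 in Col-0 Pi-free, 56.6 and 67.7 in per1 control, and 59.5 and 48.2 in per1 Pi-free. Its per1 arrays were below its Col-0 arrays in both media, at -0.33 ± 0.26 with Pi and -0.31 ± 0.26 without Pi. The latter was -0.19 without the per1 Pi-free array of replicate 2 and -0.43 without that of replicate 1. Its limma adjusted p was 0.73 in each medium and 0.49 averaged over media. CYP71B23 and CYP71B26 were the measured members with both per1 arrays below both Col-0 arrays in each medium.

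The pair of measured CYP71B genes on chromosome 1, CYP71B28 (AT1G13090) and CYP71B29 (AT1G13100), had their highest mean in Col-0 control. CYP71B28 read 123.4 and 186.2 there, 78 and 94 in Col-0 Pi-free, 104.5 and 59.3 in per1 control, and 82.1 and 80 in per1 Pi-free. The Col-0 control arrays were above all 6 others. Its Pi response in Col-0 was -0.72 ± 0.30 with an interval of -1.41 to -0.04, and its genotype difference in control medium was -0.82 ± 0.30 with an interval of -1.50 to -0.14. The limma adjusted p was 0.61 and 0.40. Within replicate numbers 1 and 2, a match by number only, the genotype difference in control medium was -0.21 and -1.43. The arrays of each group lay far apart, at 155 ± 44.4 in Col-0 control and 81.9 ± 32 in per1 control (SD, n = 2). The genotype difference in control medium was -0.48 without the per1 control array of replicate 2 and -0.55 without the Col-0 control array of replicate 2. With each array left out in turn it ran from -1.16 to -0.48. The Pi response in Col-0 was -0.46 without the Col-0 control array of replicate 2, in a range of -0.99 to -0.46.

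CYP71B29 read 219.9 and 244.9 in Col-0 control, 169 and 183.4 in Col-0 Pi-free, 202.4 and 220 in per1 control, and 169.8 and 195.7 in per1 Pi-free. It was the measured member whose Pi-free arrays lay below the control arrays in both genotypes. The Pi response was -0.37 ± 0.18 in Col-0 and -0.20 ± 0.18 in per1. With 1 array left out, the Pi response in per1 ran from -0.29 to -0.10, the latter without the per1 Pi-free array of replicate 1. Averaged over genotypes it was -0.28 ± 0.13, with values of -0.29 and -0.27 within the replicate numbers, an interval of -0.57 to 0.00 and a limma adjusted p of 0.79. CYP71B27 (AT1G13070), a transcribed pseudogene near this pair, was above background on 2 arrays.

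**Figure D3:**
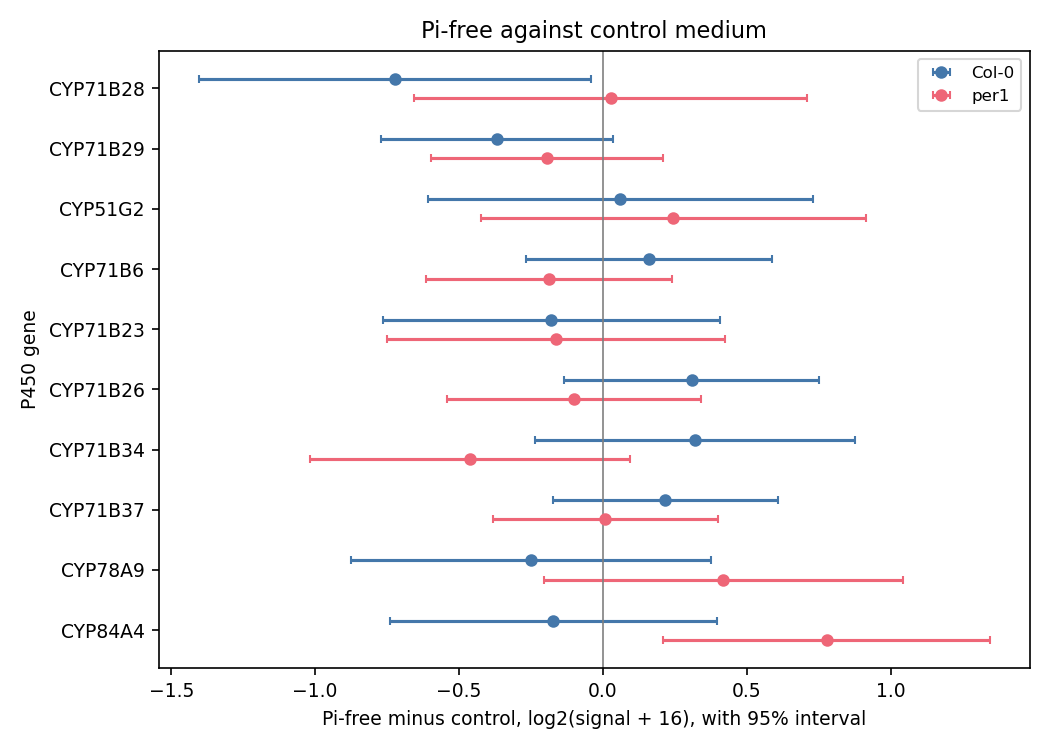
Pi response (Pi-free minus control, x axis, on the log2(signal + 16) scale) of the 10 measured P450 genes in Col-0 (blue) and per1 (red). Points are limma estimates and bars their 95% intervals, unadjusted for the number of probesets; the bars of CYP71B28 in Col-0 and of CYP84A4 in per1 leave out 0, and neither gene passed at the adjusted threshold.

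As a set the 23 members had a median Pi response of 0.06 in Col-0 and 0.01 in per1, beside 0.00 and 0.02 over all probesets. In Col-0 13 estimates were above 0 and 10 below, and in per1 12 and 11. The Col-0 Pi-free arrays lay above the control arrays for 8 members (34.8%, against 17.7% of all probesets) and below for 6 (26.1%, against 17.5%). In per1 this held for 4 (17.4%, against 19.2%) and 2 members (8.7%, against 14.5%). Averaged over genotypes 2 members were higher without overlap in both genotypes (8.7%, against 3.71%) and 1 was lower (4.35%, against 2.91%). The 2 higher ones, CYP71B38 and CYP71B31, were at or near background, and the lower one, CYP71B29, was a measured member. Of the 14 members without overlap in Col-0, 6 were measured members, and the others had signals at or near background. Among the measured members the estimates ran from -0.72 to 0.32 in Col-0 and from -0.46 to 0.78 in per1, with intervals that reached from -1.41 to 0.88 and from -1.02 to 1.35. Actin probesets near the 3' and the 5' end, whose ratio reflects RNA quality, gave ratios of 4.07 to 5.49 on the Pi-free arrays and 4.98 to 6.38 on the control arrays. The part of RNA quality in the Pi estimates was not tested.

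**Figure D4:**
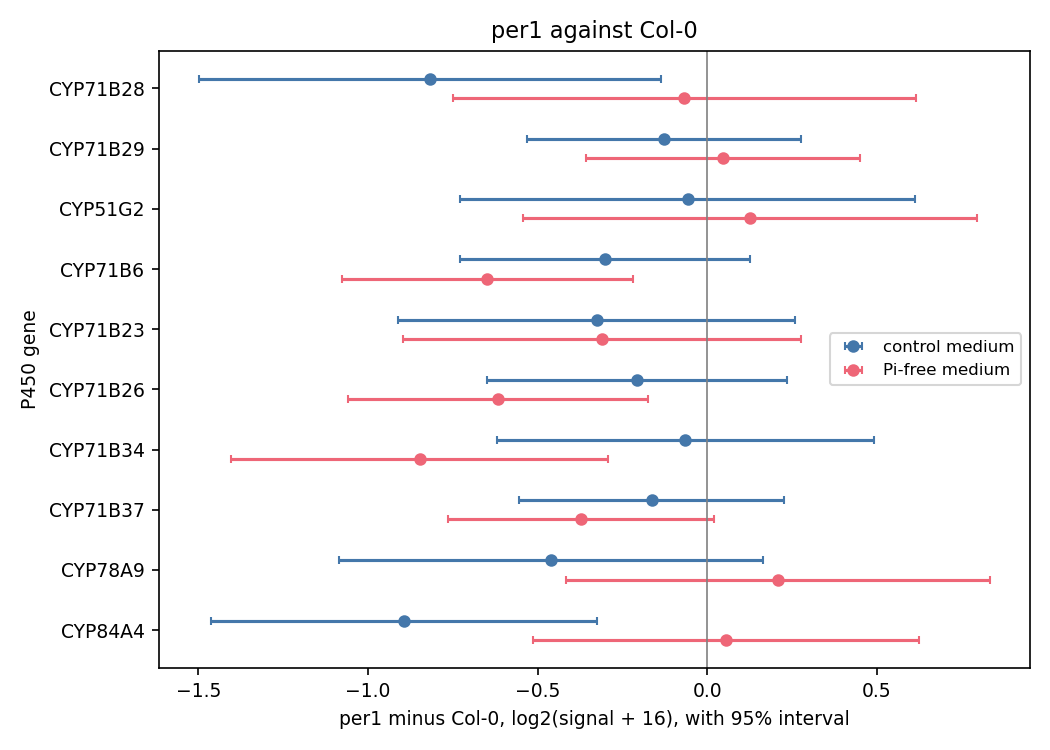
Genotype difference (per1 minus Col-0, x axis, on the log2(signal + 16) scale) of the 10 measured P450 genes in control medium (blue) and Pi-free medium (red). Points are limma estimates and bars their 95% intervals, unadjusted for the number of probesets. In control medium all 10 points lie below 0, from -0.89 for CYP84A4 to -0.06 for CYP51G2. The share of all probesets below 0 was not counted.

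The genotype difference had a median of -0.13 over the 23 members in control medium, beside -0.02 over all probesets, with 18 estimates below 0 and 5 above. In Pi-free medium the median was -0.07 beside 0.00, with 13 below and 10 above, and averaged over media it was -0.27 beside -0.01, with 15 below and 8 above. Both per1 arrays lay below both Col-0 arrays for 9 members with Pi (39.1%, against 22.3% of all probesets) and for 9 without Pi (39.1%, against 19.8%). They lay above for 1 (4.35%, against 19.1%) and 3 members (13%, against 20.5%). Of the 9 lower members 5 were measured in each medium, and of the higher ones 0 with Pi and 1 without Pi. The others had signals at or near background. In both media at once per1 was lower for 4 members (17.4%, against 7.06%) and higher for 0 (against 6.28%). Of the 4, CYP71B23 and CYP71B26 were measured, and CYP71B21 and CYP71B24 were at background on every array. The members are related genes and not replicates, and these shares describe the set without a test.

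Averaged over media, 1 of 2 shoot markers and 1 of 4 root markers with a named probeset passed the test between the genotypes, against 0.818% of all probesets. Of 15 green shoot tissue markers 2 had a named probeset, RCA (Rubisco activase) and LHCB4.1 (a light-harvesting protein), and both were above background on all arrays. Their summed signal was 522.3 to 621.3 in Col-0 control, 468 to 553.7 in Col-0 Pi-free, 291.5 to 341.9 in per1 control and 283.3 to 324.2 in per1 Pi-free. Averaged over media RCA was lower in per1, at -0.73 ± 0.13 with a limma adjusted p of 0.043. LHCB4.1 stood at -0.76 ± 0.15 with a limma adjusted p of 0.052. Of 18 root markers 4 had a named probeset, PYK10 (a beta-glucosidase of root endoplasmic reticulum bodies), the root hair expansin genes EXPA7 and EXPA18, and AT4G26010. All 4 were above background in every group, and their summed signal was 28862 to 31201 in Col-0 control, 28403 to 28540 in Col-0 Pi-free, 27619 to 31098 in per1 control and 25217 to 26013 in per1 Pi-free. EXPA18 was lower in per1 averaged over media, at -0.47 ± 0.08 with a limma adjusted p of 0.030. PYK10, EXPA7 and AT4G26010 stood at -0.05 ± 0.09, -0.14 ± 0.105 and -0.25 ± 0.10 and did not pass. The averages hide a difference between media. With Pi and without Pi, the EXPA18 difference was -0.23 and -0.71, and that of AT4G26010 0.02 and -0.52. For EXPA7 it was 0.02 and -0.30, and for PYK10 -0.04 and -0.06. None of these passed in a single medium. The part of the shoot or root marker differences in the P450 values was not tested.

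For the interaction the median of the 23 members was 0.02, the same as over all probesets, with 12 estimates above 0 and 11 below. CYP71B34 stood at -0.78 ± 0.35, with -0.82 and -0.75 within replicate numbers 1 and 2, the reverse of the CYP84A4 estimate. Without the Col-0 control array of replicate 1 it was -0.45, and without that of replicate 2 it was -1.12. CYP71B26, CYP71B6 and CYP71B37 stood at -0.41 ± 0.28, -0.35 ± 0.27 and -0.21 ± 0.25, and CYP71B29 at 0.17 ± 0.25. Leaving out 1 array at a time moved these 4 estimates between -0.62 and -0.20, -0.58 and -0.12, -0.41 and -0.0044, and 0.08 and 0.27, respectively. The ends of the range came without the per1 Pi-free arrays of replicates 1 and 2 for CYP71B26, CYP71B37 and CYP71B29, and without the Col-0 control arrays for CYP71B6. The limma adjusted p of these 5 interactions ran from 0.92 to 0.96, so a Pi response that differs between the genotypes was not detectable for any P450 member with 2 arrays in a group. Among measured members the lowest interval end of the interaction was -1.57, for CYP71B34, and the highest was 1.75, for CYP84A4. The interval of each gene was narrower than that range, as for CYP71B29 at -0.40 to 0.74. Differences within a gene's own interval were not resolved.

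The remaining members were at or near background, and no fold is given for them. CYP71B38 (AT3G44250) was above the limit on 6 of 8 arrays, with signals of 38.9 and 37.3 in Col-0 control, 45.1 and 50.5 in Col-0 Pi-free, 39 and 34.7 in per1 control, and 49.2 and 56.6 in per1 Pi-free. Its Pi-free arrays were above its control arrays in both genotypes, with a limma adjusted p of 0.87 for the averaged Pi response. CYP71B27 and CYP71B35 were above the limit on 2 arrays and CYP71B25 and CYP71B30P on 1. CYP71B30P, CYP71B5 and CYP71B31 lie close together elsewhere on chromosome 3. CYP71B31, known for linalool oxidation in flowers, was above background on no array and read 2 to 20.5, and it was the member with an unadjusted p under 0.05 for the averaged Pi response. The 8 members above background on no array had signals of 1.1 to 30.4.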

How the data were processed

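RNA from roots was labelled with biotin and hybridised to Affymetrix ATH1 arrays, per the labels' protocols. The authors deposited linear probeset signal intensities; how probes were summarised and scaled is not stated in the labels. Their 2% trimmed mean came to 500 on every array, so no normalization was added. Of 22810 probesets, 64 controls were left out. The platform annotation named 1 gene for 13513 of the rest, of which 13436 matched the TAIR10.1 gene table for current symbols and locus order.

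limma 3.58.1 (R 4.3.3) was fitted to log2(signal + 16), which understates changes of low signals, with 1 mean per group, 4 residual degrees of freedom and an intensity trend. P-values were adjusted (Benjamini-Hochberg) over all 22746 probesets and reflect only the spread between these arrays. Tested on simulated data (Col-0 Pi response, 22746 probesets, changes placed in the brighter part), the fit recovered 92.1% of changes of 1 and 99.9% of changes of 2 on the log2 scale, with 7.9% of calls false. In each run 200 probesets were changed at once, and most P450 members were dimmer than the brighter part. These shares therefore do not tell how often a change of a P450 member would be found. The number of arrays limits precision.

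Members, lists and tests were chosen with earlier results of these data known. The naming rule took called members (0 here) and 1 measured member per role group. Per comparison it also took up to 3 higher and 3 lower members with the smallest p, no overlap and a mean above the median probeset. For the interaction the condition of no overlap was left out. Other members were named after their values were seen. Alternatives were pseudocounts of 1 and 64, a mean signal above 64, no trend, robust variances, quantile normalization, a replicate block, and leaving out each array. Counting every probeset of a locus, or adding loci by synonym, left the same 23 members.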

Additional observations from a re-analysis of the deposited data

How the results depend on the processing

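The count of called members was 0 under 15 alternatives in all comparisons, with 1 exception. With the replicate number as a block, 1 member passed for the genotype difference averaged over media: CYP71B6, at -0.47 with a limma adjusted p of 0.023, against a lowest adjusted p of 0.15 without the block and up to 0.40 over the alternatives. The arrays share only a number; correlations of same-numbered deviations between groups were 0.062 to 0.28. The block raised the calls over all probesets from 186 to 357 in that comparison and changed no other call of a member. Of 495 values of 33 named results of single members under an alternative, 494 kept direction and side of the threshold. These 33 were picked from the same data, mostly for a small p or for groups without overlap. Leaving out 1 array cannot reverse groups that do not overlap. Fits without a trend, with robust variances or with a block keep the same estimates. Kept direction was therefore largely fixed in advance and is no measure of robustness. For the Pi response and the interaction, the median of the members moved past the spread between replicate numbers in these cases. With a mean signal above 64 (10 members) it was -0.056 for the Pi response in Col-0, -0.046 in per1 and 0.096 for the interaction. After quantile normalization it was -0.048 for the Pi response in per1 and -0.050 for the interaction. With a pseudocount of 1 it was 0.11 for the averaged Pi response. Without 1 array it ran from -0.092 to 0.22 for the Pi response in Col-0, -0.14 to 0.11 in per1, -0.029 to 0.094 averaged, and -0.25 to 0.12 for the interaction. The genotype medians stayed below 0 and within that spread, but some moved by over 1.5 times. The averaged one was -0.11 with a pseudocount of 64; the one in control medium was -0.22 with a pseudocount of 1 and -0.25 with a mean signal above 64; the one in Pi-free medium was -0.19 with a mean signal above 64. Without 1 array they ran from -0.25 to -0.058 in control medium, -0.18 to -0.0025 in Pi-free medium and -0.35 to -0.10 averaged. The causes were not tested. Signals near background limit what 13 of the 23 probesets can show.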

Other observations

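CYP718 (AT2G42850), a P450 gene whose symbol has no subfamily letter and therefore falls outside the naming pattern, also had a named probeset. It was above background on all 8 arrays, at 134.3 and 126.2 in Col-0 control, 76 and 118.7 in Col-0 Pi-free, 91.6 and 60.4 in per1 control, and 93.3 and 57.4 in per1 Pi-free. It is not counted among the members and was named after its values were seen. The difference of per1 from Col-0 averaged over media was -0.50 ± 0.22 on the log2 scale, with a limma adjusted p of 0.35. The Pi response averaged over genotypes was -0.21 ± 0.22, with an adjusted p of 0.94.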
